A study of Mus musculus with 14 samples.

Results

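The transcripts of 9 genes of epithelial cell junctions were followed in eyes of newborn mice in which 1 of 2 chromatin remodelling ATPases had been deleted. They were the claudin genes Cldn1, Cldn3, Cldn4, Cldn7, Cldn8 and Cldn10, the occludin gene Ocln, Tjp1, which encodes the scaffold protein ZO-1, and Cdh1, which encodes E-cadherin. They were chosen by name, with earlier results of these data known, and each probe set annotated to 1 of them alone was taken. All 9 were among the 12393 genes on the array, with 15 of the 22626 probe sets tested: 4 each for Cldn1 and Cldn3 and 1 for each of the other 7 genes.

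Tight junctions seal the space between neighbouring epithelial cells near their apical side. Claudins are membrane proteins that form the strands of the seal, and different claudins make it tighter or give it pores for selected ions. Occludin lies in the same strands, and ZO-1 ties the strands to actin inside the cell. E-cadherin holds epithelial cells together in the adherens junction just below. In the eye these proteins are best known from the epithelia of the cornea and conjunctiva and from the pigment epithelium, and E-cadherin also from the lens epithelium.

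The study measured total RNA from whole eyes at postnatal day 1 on 14 single-colour arrays. The Snf2h experiment held 4 eye samples with a lens-conditional knockout (cKO) of Snf2h, the ISWI-type ATPase encoded by Smarca5, and 4 wildtype samples, all on C57BL/6. The Brg1 experiment held 3 cKO samples for Brg1, the SWI/SNF-type ATPase encoded by Smarca4, and 3 wildtype samples, all on a mixed background. The labels name no Cre line or promoter, and for Brg1 they leave the cells of the deletion unnamed. The design text mentions 4 biological replicate experiments, but the labels do not tie the Brg1 samples to animals, so p-values measure the spread between these samples. Whole eyes mix many tissues, and fewer cells of a type cannot be told apart from less RNA per cell. The Brg1 and Snf2h wildtype groups differ in strain and in experiment, and these cannot be told apart.

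Values are log2 of the deposited RMA intensity, and a change is cKO minus wildtype on that scale. A probe set was called when limma's p, adjusted by Benjamini-Hochberg over all 22626 probe sets, was under 0.05. Some libraries stood apart. Snf2h cKO replicates 1 and 2 differed with an SD of 0.205, against 0.401 to 0.723 for the remaining 17 within-group pairs. The Gapdh 3' probe set exceeded the 5' probe set by 0.77 to 0.99 in Snf2h cKO eyes and by 1.09 to 4.47 in Snf2h wildtype eyes, with wildtype replicate 3 highest. Every Snf2h wildtype array thus lay above every Snf2h cKO array, so in that experiment the Gapdh difference and the genotype cannot be told apart. The Gapdh difference was 0.63 to 0.96 in Brg1 cKO and 0.68 to 0.74 in Brg1 wildtype eyes. The transcripts of the deleted genes did not pass the test. In Snf2h cKO eyes the 3 Smarca5 probe sets changed by −0.50, −0.19 and 0.31, and the Smarca4 probe sets changed by −0.74 and 0.05 in Brg1 cKO eyes. The sources used here do not place these probe sets inside or outside the deleted exons.

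Promoter sequences of 4 claudins are shown first: Cldn3 and Cldn10, which fell in Brg1 cKO eyes, Cldn4, the neighbour of Cldn3, and Cldn7, whose window holds the most motif matches. Cldn3 and Cldn4 lie next to each other on chromosome 5 with 0 annotated genes between them, and in Brg1 cKO eyes all 4 Cldn3 probe sets were lower while Cldn4 was at its wildtype level on average. Cldn7 and Cldn10 each have a pair of annotated starts. Both Cldn10 windows are printed, and of the Cldn7 windows the downstream one, which holds CAGGTG and AGGAAG, while the other holds AGGAAG alone. Each line runs 5′ to 3′ on the gene's own strand, from 250 bases before the annotated start to 50 after it, in RefSeq's GRCm38.p6 annotation. Capitals mark CAGGTG, the E-box that Snail and Zeb repressors of E-cadherin can bind (or CACCTG, its other strand), and AGGAAG or CTTCCT, a form of the core that Ets factors such as Ehf can bind.
Cldn3, chr5:134985964-134986263, plus strand: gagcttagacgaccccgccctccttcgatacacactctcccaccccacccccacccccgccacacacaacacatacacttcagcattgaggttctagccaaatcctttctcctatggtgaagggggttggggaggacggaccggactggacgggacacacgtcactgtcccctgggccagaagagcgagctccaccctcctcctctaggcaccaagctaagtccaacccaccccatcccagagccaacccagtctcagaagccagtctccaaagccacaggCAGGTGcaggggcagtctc
Cldn4, chr5:134946885-134947184, minus strand: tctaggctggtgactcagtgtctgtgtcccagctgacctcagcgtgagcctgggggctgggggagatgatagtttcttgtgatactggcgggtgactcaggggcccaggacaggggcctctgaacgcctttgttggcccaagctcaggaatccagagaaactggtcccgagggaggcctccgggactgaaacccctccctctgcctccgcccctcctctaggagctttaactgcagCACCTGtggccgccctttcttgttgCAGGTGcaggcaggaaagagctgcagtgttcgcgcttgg
Cldn7, chr11:69965171-69965470, plus strand: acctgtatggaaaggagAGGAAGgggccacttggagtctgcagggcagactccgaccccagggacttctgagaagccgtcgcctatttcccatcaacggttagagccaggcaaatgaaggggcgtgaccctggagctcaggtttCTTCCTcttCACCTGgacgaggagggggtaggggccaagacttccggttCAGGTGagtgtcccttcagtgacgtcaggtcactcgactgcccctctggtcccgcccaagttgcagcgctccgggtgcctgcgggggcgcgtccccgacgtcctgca
Cldn10, upstream start, chr14:118787621-118787920, plus strand: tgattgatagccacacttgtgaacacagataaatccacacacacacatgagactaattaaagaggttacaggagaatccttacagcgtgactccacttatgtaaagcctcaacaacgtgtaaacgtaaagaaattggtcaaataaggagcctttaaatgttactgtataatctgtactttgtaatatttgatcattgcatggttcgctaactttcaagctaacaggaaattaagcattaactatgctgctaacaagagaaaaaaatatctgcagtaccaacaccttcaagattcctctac
Cldn10, downstream start, chr14:118854700-118854999, plus strand: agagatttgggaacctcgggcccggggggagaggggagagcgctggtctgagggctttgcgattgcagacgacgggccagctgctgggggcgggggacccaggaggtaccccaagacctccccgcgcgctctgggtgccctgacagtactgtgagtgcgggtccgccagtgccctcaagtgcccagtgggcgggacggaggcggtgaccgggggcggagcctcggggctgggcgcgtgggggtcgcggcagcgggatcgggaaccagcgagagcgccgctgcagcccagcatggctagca

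The RefSeq table held 10 such windows for 7 of the 9 genes, those of Cldn1, Cldn3, Cldn4, Cldn7, Cldn10, Ocln and Tjp1. CAGGTG on either strand occurred in 5 of the 10 windows, those of 4 genes (Cldn3, Cldn4, Cldn7 and Ocln), and in 20.2% of all 32851 windows of this length. The Cldn3 window held 1 copy and the Cldn4 window held 2, so both neighbours carry these letters. AGGAAG on either strand occurred in 2 windows, both of Cldn7, and in 35.4% of all windows. AACCGGTT, the palindrome bound by Grainyhead-like factors, was in 0 of the 10 windows and in 0.146% of all windows. No match overlapped a match of another motif. The upstream Cldn10 window had 36% G and C with 4 CpG sites, and the downstream one had 72% with 27 CpG sites. The windows overlap in Ocln, and no measurement here says which start was used or whether a factor was bound.

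The Brg1 comparison asks how the junction genes respond to loss of the SWI/SNF ATPase. Cldn8, Cldn10 and Cldn3 fell in Brg1 cKO eyes, and Cldn4 and the brightest Cldn1 probe set had means close to wildtype. Of the 15 probe sets, 3 were called lower and 0 higher, where 0.243% of all probe sets were called lower and 0.349% higher. At an unadjusted p under 0.05, 9 of the 15 were lower, against 3.73% of all probe sets. The median change of the 15 was −0.95, against −0.01 over all probe sets, and 13 of the 15 changes were negative, against 51.6% of all. In 8 probe sets all cKO arrays lay below all wildtype arrays, as in 6.37% of all probe sets, and in 2 dim Cldn1 probe sets all cKO arrays lay above, as in 7.16%. The 15 are not independent, since 4 each measure Cldn1 and Cldn3. The genes were chosen with earlier results of these data known, so the shares beside them do not measure enrichment, here or below.

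Cldn8, a claudin best known for sealing the kidney collecting duct, had the largest change of the 15. It measured 1.84, 2.41 and 2.47 in Brg1 cKO eyes, against 7.31, 6.75 and 5.64 in Brg1 wildtype eyes. The groups were far apart, with all cKO arrays at the dim end of the scale. The change was −4.33 ± 0.42 (SE, 95% interval −5.31 to −3.35, limma adjusted p = 0.00979, n = 3 against 3). This is 20.1-fold on the scale of the intensities, and the size is approximate, because the cKO values are dim and no background level came with the data. The call was lost without Brg1 wildtype replicate 2 (change −4.24, adjusted p = 0.0695).

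Cldn10, whose alternative first exons give 1 form selective for anions and another selective for cations, also fell. Its levels were 5.03, 5.49 and 4.79 in Brg1 cKO eyes, against 6.68, 6.54 and 6.68 in Brg1 wildtype eyes. The groups did not overlap, and the wildtype arrays lay close together while the cKO arrays were more spread. The change was −1.53 ± 0.21 (SE, adjusted p = 0.0361), or 2.89-fold lower. Leaving out any array but cKO replicate 2 took the adjusted p above 0.05 (0.0103 to 0.207 over the 6 leave-outs), while the change stayed between −1.73 and −1.38. The probe set 1426147_s_at has a suffix that marks probes shared between transcripts of similar sequence, so it may also read others, and it cannot be assigned to either start printed above.

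Cldn3, a sealing claudin of many simple epithelia, was lower by all 4 of its probe sets, and 1 of them passed the test. The called probe set 1434651_a_at measured 4.69, 4.90 and 4.80 in Brg1 cKO eyes, against 7.28, 6.42 and 6.36 in Brg1 wildtype eyes. Its change was −1.89 ± 0.27 (SE, adjusted p = 0.0368), or 3.71-fold lower. The call was lost when any 1 array was left out (adjusted p 0.0544 to 0.129). The brightest Cldn3 probe set, 1460569_x_at, measured 4.86, 5.15 and 4.53 in Brg1 cKO eyes, against 6.80, 6.38 and 6.10 in Brg1 wildtype eyes. It changed by −1.58 ± 0.25 with an adjusted p of 0.0522 over all probe sets, and of 0.0340 when limma tested 1 probe set per gene. The other Cldn3 probe sets, 1451701_x_at and 1426332_a_at, changed by −1.82 ± 0.36 (adjusted p = 0.120) and −0.95 ± 0.23 (adjusted p = 0.212). In each of the 4 probe sets every cKO array was below every wildtype array. The suffix of 1460569_x_at and 1451701_x_at marks probe sets that may also read other transcripts.

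Cldn7, a claudin found along the sides of epithelial cells together with the adhesion protein EpCAM, varied most between Brg1 cKO arrays. It measured 5.02, 7.63 and 5.78 in Brg1 cKO eyes, against 8.84, 7.88 and 8.05 in Brg1 wildtype eyes. All cKO arrays were below all wildtype arrays, but cKO replicate 2 came close to the lowest wildtype array. The change was −2.11 ± 0.63 (SE, adjusted p = 0.366), which did not pass. Without cKO replicate 2 it was −2.86 (adjusted p = 0.0226), and the number of called probe sets among the 15 was then 4.

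Cldn4, a sealing claudin that with Cldn3 serves as receptor for a clostridial enterotoxin, had almost the same mean in both groups. It measured 5.93, 7.60 and 7.00 in Brg1 cKO eyes, against 7.41, 6.27 and 6.93 in Brg1 wildtype eyes, and the groups overlapped. The change was −0.03 ± 0.46 (SE, adjusted p = 0.991). Its 95% interval of −1.11 to 1.05 leaves room for a change of about that size in either direction. The interval takes no account of the adjustment over all probe sets, so a change beyond it need not have been called. Cldn1, the claudin that the barrier of the epidermis depends on, gave a similar picture in its brightest probe set, 1437932_a_at. That probe set measured 7.30, 7.86 and 8.22 in Brg1 cKO eyes, against 7.56, 7.73 and 8.37 in Brg1 wildtype eyes, a change of −0.09 ± 0.31 (SE, adjusted p = 0.964). The other 3 Cldn1 probe sets never exceeded 4.44 on any array of this experiment, and none was called (changes −0.17, 0.38 and 0.22).

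The genes of the other junction proteins had negative changes that did not pass the test in Brg1 cKO eyes. Cdh1 measured 7.79, 9.33 and 8.26 in Brg1 cKO eyes, against 9.22, 9.63 and 9.75 in Brg1 wildtype eyes. The groups overlapped through cKO replicate 2 alone, and the change was −1.07 ± 0.39 (SE, adjusted p = 0.518). Ocln measured 3.44, 4.37 and 3.58 in Brg1 cKO eyes, against 4.70, 4.05 and 4.66 in Brg1 wildtype eyes, with a change of −0.67 ± 0.30 (adjusted p = 0.642). Here too cKO replicate 2 was the highest cKO array and lay above the lowest wildtype array. Tjp1 measured 10.31, 10.20 and 10.40 in Brg1 cKO eyes, against 10.996, 10.84 and 10.65 in Brg1 wildtype eyes. Its groups did not overlap, and its change of −0.53 ± 0.17 (adjusted p = 0.399) was the most tightly measured of these 3. Without cKO replicate 2 the change of Cdh1 was −1.50 (adjusted p = 0.0608).

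**Figure D1:**
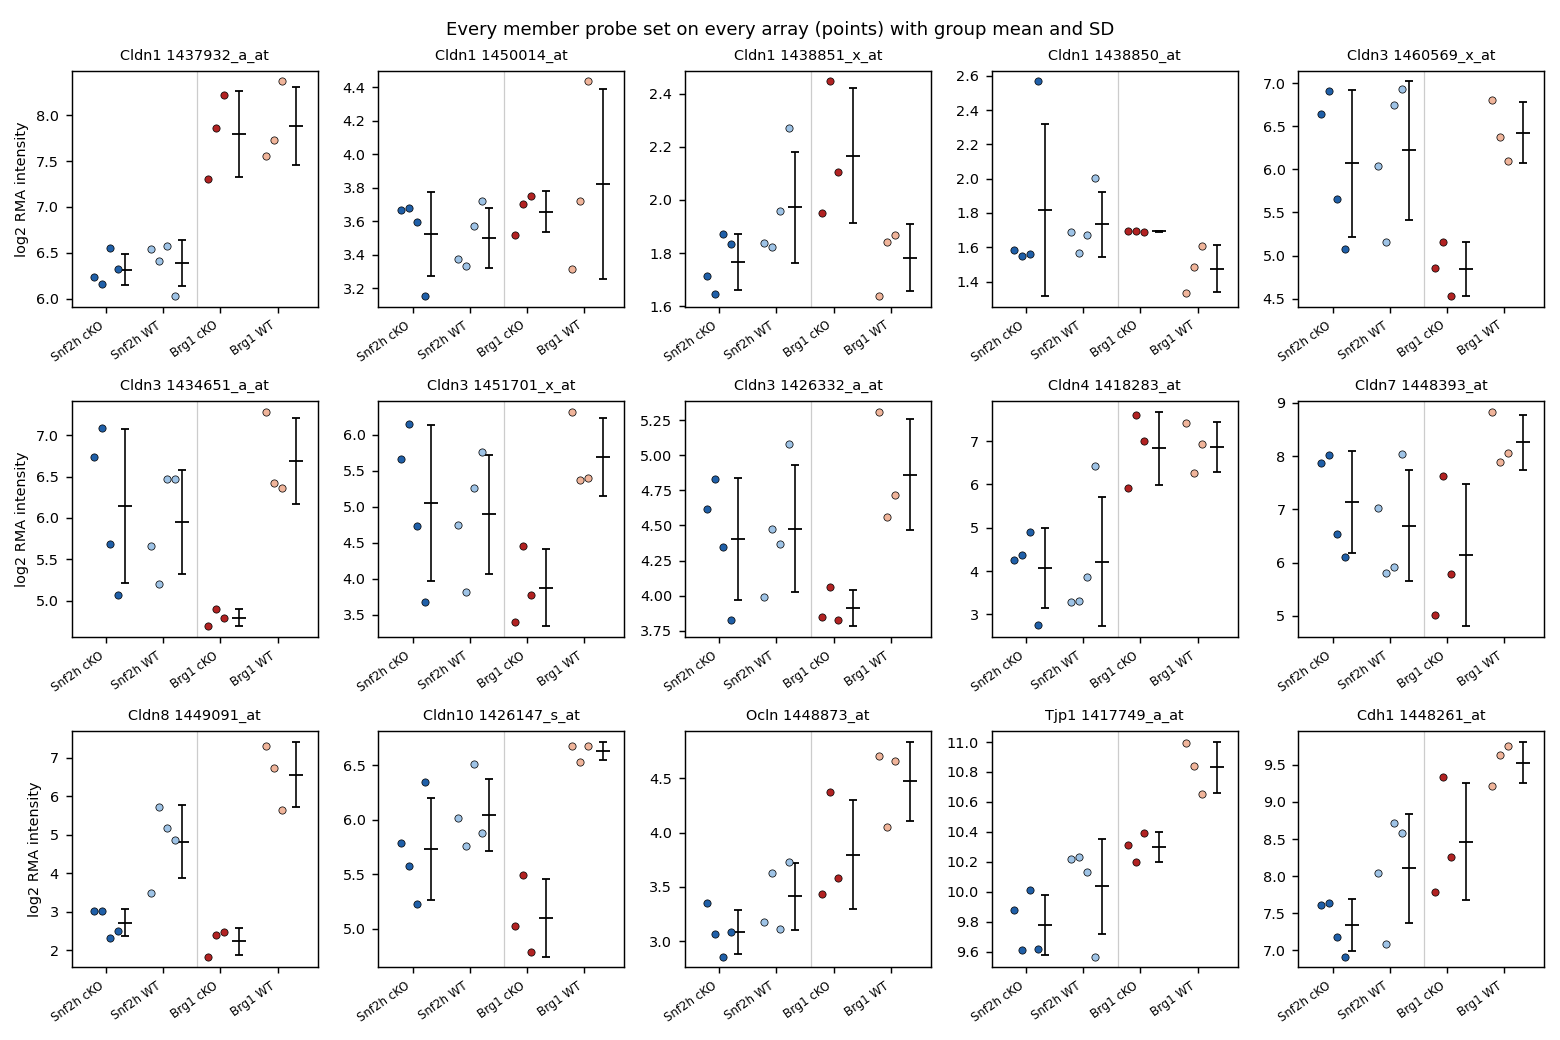
Log2 RMA intensity (vertical axes, each with its own scale) of all 15 probe sets of the 9 genes on each of the 14 arrays, for Snf2h cKO, Snf2h wildtype, Brg1 cKO and Brg1 wildtype eyes, with the group mean and SD beside the points. Cldn8 and all 4 Cldn3 probe sets lie lower in every Brg1 cKO array than in any Brg1 wildtype array, and Cldn8 also separates Snf2h cKO from Snf2h wildtype eyes.

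The Snf2h comparison asks the same question for the ISWI ATPase, deleted in the lens. No probe set of the 9 genes was called in Snf2h cKO eyes: limma called 0 of the 15 lower, where 0.00442% of all probe sets were called lower, and 0 higher, where 0.00884% were. At an unadjusted p under 0.05, 1 of the 15 was lower, that of Cldn8, against 7.89% of all probe sets. The median change was −0.15, against −0.04 over all probe sets, and 10 of the 15 changes were negative, against 54.7% of all. The groups of 1 probe set did not overlap with cKO below wildtype, as in 4.22% of all probe sets.

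Cldn8 was that probe set. It measured 3.02, 3.02, 2.33 and 2.50 in Snf2h cKO eyes, against 3.50, 5.74, 5.18 and 4.88 in Snf2h wildtype eyes. Wildtype replicate 1 came closest to the cKO arrays and the other 3 wildtype arrays lay well above them. The change was −2.11 ± 0.42 (SE, 95% interval −3.04 to −1.17, adjusted p = 0.0954), or 4.31-fold lower, which did not pass. It passed without wildtype replicate 1 (−2.55, adjusted p = 0.0047) and with array weights (−1.85, adjusted p = 0.0448). With the near-identical cKO replicates 1 and 2 averaged into 1 sample the adjusted p was 0.261 (change −2.21), and without wildtype replicate 3, the array with the large Gapdh difference, it was 0.151 (change −1.99).

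Cldn3 and Cldn7 varied widely within both groups of the Snf2h experiment. Cldn7 measured 7.88, 8.02, 6.53 and 6.12 in Snf2h cKO eyes, against 7.03, 5.81, 5.92 and 8.04 in Snf2h wildtype eyes, a change of 0.44 ± 0.57 (SE, adjusted p = 0.711). The brightest Cldn3 probe set measured 6.64, 6.91, 5.66 and 5.07 in Snf2h cKO eyes, against 6.04, 5.16, 6.74 and 6.93 in Snf2h wildtype eyes, a change of −0.15 ± 0.48 (adjusted p = 0.891). For both genes cKO replicates 1 and 2, which are near-identical arrays, and wildtype replicate 4 were among the high arrays, and cKO replicate 4 and wildtype replicate 2 were among the low ones. The 4 Cldn3 probe sets changed by −0.15, 0.20, 0.16 and −0.07, with adjusted p values of 0.845 to 0.907. Cldn4 measured 4.26, 4.36, 4.91 and 2.74 in Snf2h cKO eyes, against 3.28, 3.30, 3.87 and 6.42 in Snf2h wildtype eyes, a change of −0.15 ± 0.71 (adjusted p = 0.929). Single arrays set the sign of that change, which was 0.59 (adjusted p = 0.479) once wildtype replicate 4 was left out. Leaving out cKO replicate 4 in its place gave 0.29 (adjusted p = 0.861).

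Cdh1, Cldn10, Ocln, Tjp1 and the 4 Cldn1 probe sets did not pass the test in Snf2h cKO eyes. Cdh1 measured 7.61, 7.64, 7.19 and 6.92 in Snf2h cKO eyes, against 8.04, 7.08, 8.71 and 8.58 in Snf2h wildtype eyes, a change of −0.76 ± 0.34 (SE, adjusted p = 0.287). The cKO arrays were all below 3 of the wildtype arrays, and wildtype replicate 2 lay among them. Cldn10 changed by −0.31 ± 0.25 (adjusted p = 0.540), Ocln by −0.33 ± 0.18 (0.379) and Tjp1 by −0.26 ± 0.19 (0.485), each with overlapping groups. The brightest Cldn1 probe set lay between 6.16 and 6.55 in Snf2h cKO eyes and between 6.03 and 6.57 in Snf2h wildtype eyes, a change of −0.07 ± 0.16 (adjusted p = 0.845). The dim Cldn1 probe sets 1450014_at, 1438851_x_at and 1438850_at changed by 0.02, −0.21 and 0.08 (adjusted p 0.472 to 0.953), each with overlapping groups.

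**Figure D2:**
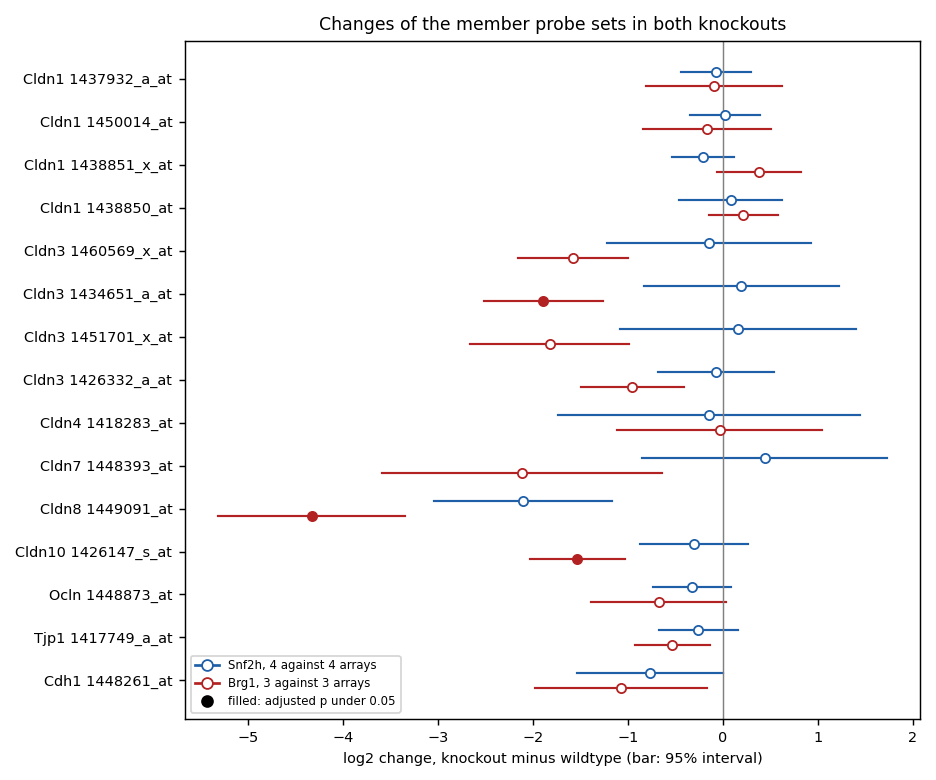
Log2 change, cKO minus wildtype, of the 15 probe sets (rows) in the Snf2h experiment (4 against 4 arrays) and the Brg1 experiment (3 against 3 arrays), with bars for the 95% interval and filled points where limma's adjusted p was under 0.05. The filled points are Cldn8 at −4.33, Cldn3 at −1.89 and Cldn10 at −1.53, all in the Brg1 experiment.

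Whether the knockouts differed was tested as the Brg1 change minus the Snf2h change in 1 limma fit over all 14 arrays. Of the 15 probe sets, 0 were called lower and 0 higher, where 0.141% of all probe sets were called lower and 0.517% higher. At an unadjusted p under 0.05, 7 of the 15 had the more negative change in Brg1 cKO eyes, against 6.43% of all probe sets. They were the 4 Cldn3 probe sets and those of Cldn7, Cldn8 and Cldn10. The change of 1 probe set, the dim Cldn1 1438851_x_at, was more positive in Brg1 cKO eyes at that level (difference 0.59 ± 0.23, adjusted p = 0.299). The difference was −2.22 ± 0.65 (SE) for Cldn8 and −1.22 ± 0.36 for Cldn10, both with an adjusted p of 0.178, and −2.55 ± 0.94 for Cldn7 (adjusted p = 0.278). For the Cldn3 probe set called in Brg1 cKO eyes it was −2.09 ± 0.62 (adjusted p = 0.185). The changes in Brg1 cKO eyes were therefore not shown to differ from those in Snf2h cKO eyes. For Cdh1 the difference was −0.30 ± 0.56, with a 95% interval of −1.50 to 0.89 (adjusted p = 0.861).

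Across the 4 groups the Brg1 wildtype eyes had the highest mean for 13 of the 15 probe sets, the exceptions being the dim Cldn1 probe sets 1438851_x_at and 1438850_at. For Cldn10, Ocln, Tjp1, Cdh1 and the brightest Cldn1 probe set, every Brg1 wildtype array lay above every Snf2h wildtype array. The shares of all probe sets that do the same were not counted, so neither pattern is read as particular to these genes. From low to high, the means of Cdh1 were 7.34 in Snf2h cKO, 8.10 in Snf2h wildtype, 8.46 in Brg1 cKO and 9.53 in Brg1 wildtype eyes, and neighbours in this order overlapped. Tjp1, Ocln, Cldn4 and the brightest Cldn1 probe set followed the same order. In Tjp1 only the last step, between Brg1 cKO and Brg1 wildtype, was free of overlap, and in Cldn1 only the step between Snf2h wildtype and Brg1 cKO. The order for Cldn8 was Brg1 cKO (2.24), Snf2h cKO (2.72), Snf2h wildtype (4.83) and Brg1 wildtype (6.57), with a gap between the cKO groups and the wildtype groups, and overlap between the cKO groups and between the wildtype groups.

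Other genes of the same junctions were set beside these 9. Counts and medians of these lists use 1 probe set per gene, the brightest, while a gene is named with its probe set of smallest p, and its brightest is given where that is another. For these, 0.331% of all genes were called lower and 0.484% higher in Brg1 cKO eyes, and 0.00807% lower and 0% higher in Snf2h cKO eyes. Among 63 other genes of tight junctions, adherens junctions and desmosomes, limma called 0 in either knockout. Their median change was −0.09 in Brg1 cKO eyes, against 0.02 over all genes, and −0.12 in Snf2h cKO eyes, against −0.05 over all genes. Negative changes made up 34 of the 63 in Brg1 cKO eyes, against 47.2% of all genes, and 43 in Snf2h cKO eyes, against 56.5% of all genes.

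Among 13 other claudins 5 changes were negative in Brg1 cKO eyes, with a median of 0.02. Cldn6, a claudin of embryonic epithelia, stood lowest in that list. It measured 3.94, 5.53 and 4.69 in Brg1 cKO eyes, against 7.91, 6.22 and 6.63 in Brg1 wildtype eyes, a change of −2.20 ± 0.53 (SE, adjusted p = 0.210). As in Cldn7, the groups did not overlap and cKO replicate 2 was the highest cKO array. Cldn11, a claudin of myelin and of Sertoli cells, changed by 0.56 ± 0.21 (adjusted p = 0.543), and Cldn2, a pore-forming claudin, by 0.61 ± 0.27 (adjusted p = 0.627). Of these 13, 11 had negative changes in Snf2h cKO eyes with a median of −0.27, and those with the smallest p were Cldn18 (−0.49, brightest −0.24), Cldn14 (−0.28) and Cldn19 (0.40), at adjusted p values of 0.281 to 0.331.

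The other tight junction genes, 22 scaffold, polarity and membrane proteins, had medians of 0.10 in Brg1 cKO eyes and 0.0022 in Snf2h cKO eyes. The smallest p in Brg1 cKO eyes belonged to Pard3, Jam3 and Cxadr (changes −0.46, −0.55 and −0.53, adjusted p 0.690 to 0.716), and their brightest probe sets changed by 0.24, −0.15 and −0.91. For Snf2h cKO eyes it was that of Jam2, a junctional adhesion molecule also found in endothelium, whose probe set 1419288_at changed by 1.01 ± 0.14 (adjusted p = 0.0605) while its other 3 lay between −0.23 and −0.06. The scaffold genes Magi1 (0.86, brightest −0.0033) and Magi3 (0.58) followed, both with an adjusted p of 0.224. Of 16 other adherens junction genes, 9 had negative changes in each knockout. Epcam, an adhesion protein of epithelial cells, measured 6.78, 7.94 and 7.84 in Brg1 cKO eyes, against 9.08, 8.44 and 8.36 in Brg1 wildtype eyes, a change of −1.11 ± 0.35 (adjusted p = 0.415) without overlap. Cdh4, the cadherin of developing retina, changed by 1.26 ± 0.20 in Snf2h cKO eyes (adjusted p = 0.0752), and 1449637_at, also of Cdh4, gave −0.09. Next by p were, in Brg1 cKO eyes, Ssx2ip (−0.54, adjusted p = 0.347) and Nectin3 (−0.81, brightest −0.29, adjusted p = 0.518), and in Snf2h cKO eyes Ptprf (1.30, brightest 0.33, adjusted p = 0.162) and Ctnna1, which encodes alpha-catenin (−0.49, adjusted p = 0.247).

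Desmosome genes, which anchor keratin filaments between epithelial cells, had negative changes in 11 of 13 cases in Brg1 cKO eyes and in 12 of 13 in Snf2h cKO eyes. The median was −0.38 in Brg1 cKO eyes and −0.41 in Snf2h cKO eyes. At an unadjusted p under 0.05, 5 of the 13 were lower in Snf2h cKO eyes, against 8.37% of all genes, and 2 in Brg1 cKO eyes, against 3.64%. The desmosomal cadherin Dsc2 measured 8.39, 9.11 and 8.84 in Brg1 cKO eyes, against 9.55, 10.01 and 9.56 in Brg1 wildtype eyes (change −0.93 ± 0.24, adjusted p = 0.257). In Snf2h cKO eyes it measured 8.03, 7.98, 8.13 and 7.25, against 8.77, 8.60, 8.95 and 8.73 in Snf2h wildtype eyes (change −0.92 ± 0.20, adjusted p = 0.105). Neither pair of groups overlapped. Dsg2, its partner cadherin, changed by −0.84 ± 0.23 in Brg1 cKO eyes (adjusted p = 0.292) and by −1.54 ± 0.30 in Snf2h cKO eyes (adjusted p = 0.0954), again without overlap. In Brg1 cKO eyes its 5 other probe sets were all negative, and in Snf2h cKO eyes 1 of them, 1426153_a_at, was positive at 0.30. The third gene by p was Ppl, which encodes periplakin, in Brg1 cKO eyes (−0.77, adjusted p = 0.634) and Pkp4 in Snf2h cKO eyes (0.65, brightest −0.17, adjusted p = 0.152).

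Transcription factors and splicing factors of epithelial cells held the only call among the lists of junction genes and their regulators. Of 13 such genes, 12 had negative changes in each knockout, against 47.2% of all genes in Brg1 cKO eyes and 56.5% in Snf2h cKO eyes. The medians were −0.47 in Brg1 cKO eyes and −0.42 in Snf2h cKO eyes. At an unadjusted p under 0.05, 7 were lower in Brg1 cKO eyes, against 3.64% of all genes, and 2 in Snf2h cKO eyes, against 8.37%. Ehf, an Ets factor of stratified and glandular epithelium, fell in Brg1 cKO eyes. Its brightest probe set measured 4.94, 5.37 and 5.96 in Brg1 cKO eyes, against 9.58, 8.90 and 8.66 in Brg1 wildtype eyes, a change of −3.62 ± 0.33 (SE, adjusted p = 0.00791), or 12.3-fold lower. Its other probe sets, 1419475_a_at and 1419474_a_at, were also called (changes −2.71 and −1.91, adjusted p = 0.0130 and 0.0361). Leaving out any 1 array kept the brightest Ehf probe set called. That probe set measured, in Snf2h cKO eyes, 6.97, 6.95, 5.08 and 4.58, against 7.50, 5.69, 8.15 and 7.18 in Snf2h wildtype eyes (change −1.23 ± 0.65, adjusted p = 0.353), with overlap. In Snf2h cKO eyes the Ehf probe set of smallest p was 1419475_a_at, which changed by −1.08 ± 0.26 (adjusted p = 0.122) without overlap, and 1419474_a_at changed by −0.10. The difference between the knockouts did not pass for any of the 3 (adjusted p 0.112 to 0.280). Klf5, a zinc finger factor of epithelia, changed by −1.22 ± 0.34 in Snf2h cKO eyes by 1451739_at (adjusted p = 0.152, brightest −0.42).

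Trp63, the master factor of stratified epithelium, had non-overlapping groups in both experiments by its brightest probe set. It measured 6.28, 7.09 and 8.29 in Brg1 cKO eyes, against 9.21, 9.17 and 9.10 in Brg1 wildtype eyes (change −1.94 ± 0.46, adjusted p = 0.201). In Snf2h cKO eyes it measured 5.93, 5.78, 5.24 and 4.80, against 7.07, 7.04, 6.70 and 6.80 in Snf2h wildtype eyes (change −1.47 ± 0.24, adjusted p = 0.0752). The other Trp63 probe sets, 1451876_a_at and 1452027_a_at, changed by 0.07 and 0.26 in Brg1 cKO eyes and by 0.02 and 0.11 in Snf2h cKO eyes. Elf3, an Ets factor related to Ehf, changed by −1.21 ± 0.29 in Brg1 cKO eyes (adjusted p = 0.201). Among 9 repressors of Cdh1, such as the Snail, Zeb and Twist factors, limma called 0 in either knockout. Snai1, which encodes Snail, changed by 1.06 ± 0.39 in Brg1 cKO eyes (adjusted p = 0.520), and was the 1 of the 9 with an unadjusted p under 0.05 there. In Snf2h cKO eyes 6 of the 9 changes were negative, and the smallest p values were those of Tcf4, Zeb2 and Twist2. Tcf4 1424089_a_at changed by 1.02 ± 0.22 (adjusted p = 0.105, brightest 0.25), Zeb2 by 0.53 ± 0.19 (adjusted p = 0.224) and Twist2 by −0.82 ± 0.31 (adjusted p = 0.230).

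**Figure D3:**
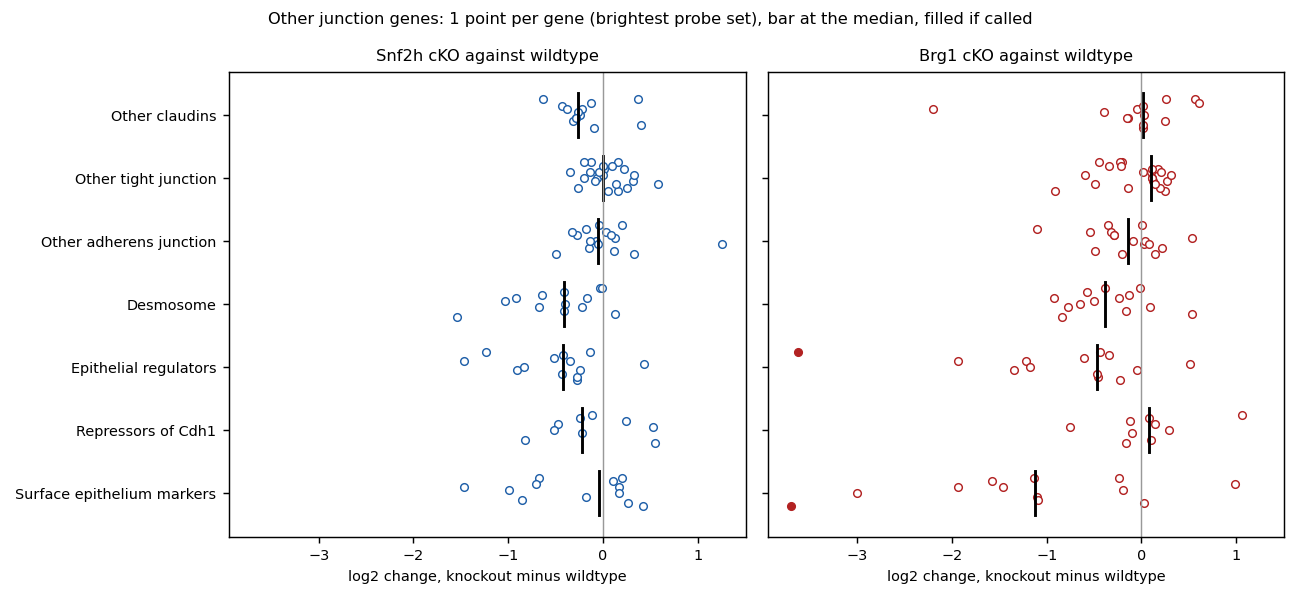
Log2 change, cKO minus wildtype, of the genes of 7 lists, named on the vertical axis (1 point per gene, its brightest probe set), in Snf2h cKO and Brg1 cKO eyes, with a bar at the list's median and filled points where limma's adjusted p was under 0.05. In these 7 lists the filled points are Ehf at −3.62 and the corneal keratin gene Krt12 at −3.70, both in the Brg1 experiment.

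Of the markers of the surface epithelium of the eye, Krt12 alone was called in Brg1 cKO eyes. All 12 markers of this list were measured, and 10 had negative changes in Brg1 cKO eyes, against 47.2% of all genes, with a median of −1.12. The summed intensity of the list ranged from 7555 to 10498 in Brg1 cKO eyes, against 13457 to 15515 in Brg1 wildtype eyes. Krt12, the keratin of corneal epithelium, measured 5.33, 5.84 and 5.79 in Brg1 cKO eyes, against 9.29, 9.50 and 9.26 in Brg1 wildtype eyes (change −3.70 ± 0.20, adjusted p = 0.000586). Krt15, a keratin of basal cells, changed by −3.01 ± 0.56 (adjusted p = 0.0988). The basal keratin genes Krt5 and Krt14 changed by −0.19 ± 0.26 (adjusted p = 0.897) and 0.98 ± 0.29 (adjusted p = 0.347), and the arrays of both groups overlapped for Krt5. In the Snf2h experiment the sum ranged from 9625 to 13095 in cKO eyes, against 9802 to 16195 in wildtype eyes. There 6 of the 12 changes were negative, against 56.5% of all genes, and Krt12 changed by 0.43 ± 0.31 (adjusted p = 0.490). At an unadjusted p under 0.05, 3 of the 12 were lower in Snf2h cKO eyes, against 8.37% of all genes, and 0 were higher. They were Trp63 (−1.47), Krt5 (−0.99) and Aldh1a1 (−0.68), each without overlap and at limma adjusted p values of 0.0752 to 0.193.

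Marker sums of other cell types also differed between Brg1 cKO and Brg1 wildtype eyes. The summed intensity of 8 lens epithelium markers was 5336 to 6326 in Brg1 cKO eyes, against 9630 to 11399 in Brg1 wildtype eyes. A sum weighs bright genes most, here Cryab, with means of 11.01 in cKO and 12.53 in wildtype eyes (adjusted p = 0.266). The mean log2 intensity of the 8 was 7.30 to 7.49, against 8.17 to 8.32, and their median change was −0.55. Of the 8 changes 7 were negative, and that of Foxe3, a dim probe set, was 0.03. Prox1, a homeobox factor of the lens, was called lower (−1.83, adjusted p = 0.0162). A second probe set of Crim1, 1452253_at, was also called lower (−1.49, adjusted p = 0.0355), while its brightest was not (−1.99, adjusted p = 0.257). For 7 measured lens fibre markers the sum was 7038 to 20998, against 33624 to 37531, and the connexin gene Gja3 and the nuclease gene Dnase2b were called lower. For 9 measured neutrophil and macrophage markers the sum was 4881 to 14094, against 816 to 1015, with S100a8 and S100a9 called higher. These genes also had the highest cKO means of the list, 10.78 and 12.06, and so weigh most in its sum. All 9 changes were positive, with a median of 1.08, and the smallest were those of Itgam (0.09), C1qa (0.35) and Adgre1 (0.57). For 10 cornified skin markers the sum was 1301 to 1816, against 490 to 780, with Sprr1b and Sprr2d called higher. Of these 10, 7 changes were positive and 3 negative, those of Krt1 (−0.53), Krt10 (−0.40) and Krt77 (−0.32). Pigment cells, retinal neurons and vascular endothelium, which also carry claudins or cadherins, had sums that overlapped between the groups. These were 6097 to 7243 in Brg1 cKO eyes, against 5401 to 6591 in Brg1 wildtype eyes, for 8 pigment markers, 3442 to 7387 against 4673 to 4769 for 7 neuronal markers, and 2191 to 3714 against 2299 to 2999 for 10 endothelial markers. The part of these shifts in the falls of Cldn8, Cldn10 and Cldn3 was not tested. In the Snf2h experiment the sums of a pair of lists did not overlap between the groups. The lens epithelium sum was 8681 to 10034 in Snf2h cKO eyes, against 10166 to 11898 in Snf2h wildtype eyes. The mean log2 intensity of these 8 markers did overlap, at 7.78 to 8.13 in cKO eyes against 7.82 to 8.33 in wildtype eyes. Their median change was −0.03, so a fall of the lens epithelium list as a whole was not shown. The neuronal retina sum was 6542 to 9116 in Snf2h cKO eyes, against 4397 to 6180 in Snf2h wildtype eyes. For the neuronal list the mean log2 intensity did not overlap either. Limma called 0 genes of either list there. At an unadjusted p under 0.05, 1 of the 8 lens epithelium genes was lower, against 8.37% of all genes. Of the 7 neuronal genes 4 were higher at that level, as were 2217 of all 22626 probe sets. The part of these lists in the Snf2h changes of Cldn8, Cdh1 and Cdh4 was not tested. The lens fibre, pigment, endothelial and neutrophil sums overlapped. The cornified skin sum was 479 to 683 in cKO eyes, against 578 to 4664 in wildtype eyes, and the highest value was that of wildtype replicate 3. Cldn8 in Snf2h wildtype replicate 3, at 5.18, lay within the range of the other wildtype arrays.

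**Figure D4:**
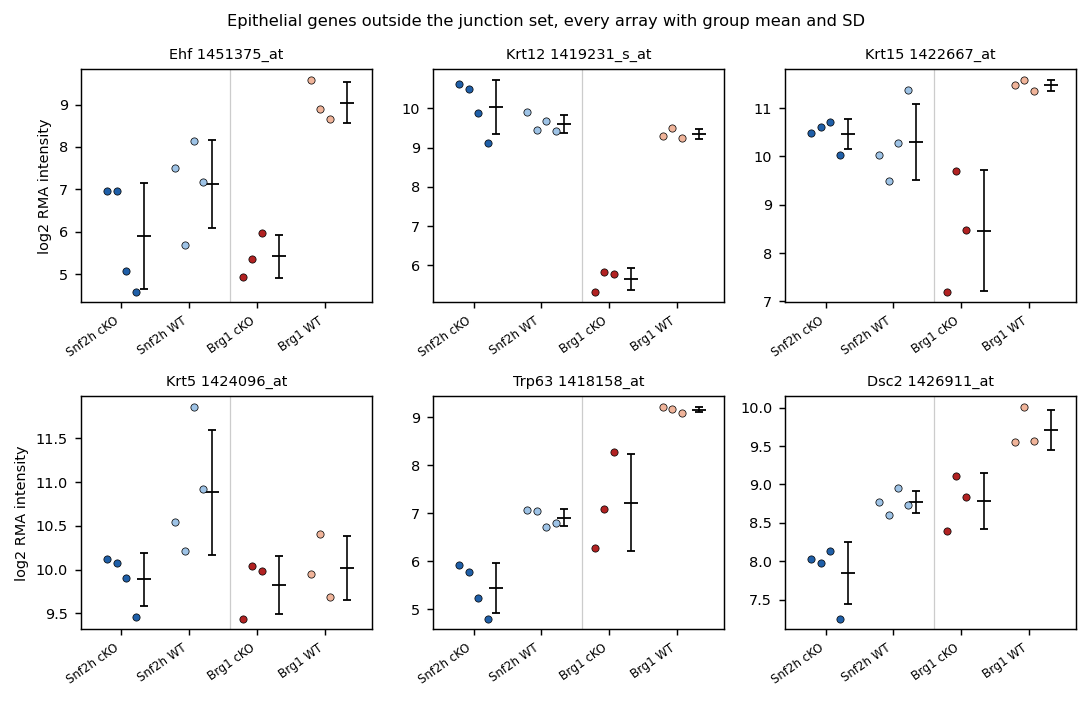
Log2 RMA intensity (vertical axes, each with its own scale) of Ehf, Krt12, Krt15, Krt5, Trp63 and Dsc2 on each of the 14 arrays, for Snf2h cKO, Snf2h wildtype, Brg1 cKO and Brg1 wildtype eyes, with the group mean and SD beside the points. Ehf and Krt12 lie lower in every Brg1 cKO array than in any Brg1 wildtype array, while Krt5 overlaps between these groups.

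The genes whose level followed that of Cdh1 most closely over the 14 arrays were Wif1 (Pearson r = 0.92), Mpzl2 (0.92), Tmem30b (0.91), Perp (0.90), Lyve1 (0.90) and Dsc2 (0.90). These values describe arrays that share strain, experiment and genotype within groups, and 2 of the 14 are near-identical. Perp and Dsc2 encode proteins of the desmosome, Mpzl2 an adhesion protein of epithelia, Wif1 a secreted Wnt inhibitor and Lyve1 a hyaluronan receptor of lymphatic endothelium and some macrophages. Of the 12392 other genes, Ocln ranked 69th (0.80), Cldn4 ranked 166th (0.75), Cldn1 ranked 339th (0.69) and Tjp1 ranked 613th (0.65). Cldn8 had an r of 0.56, Cldn7 of 0.54, Cldn10 of 0.46 and Cldn3 of 0.32. With the group means removed, the r with Cdh1 was 0.70 for Cldn3, 0.66 for Cldn7, 0.55 for Cldn4, 0.35 for Cldn10, 0.29 for Ocln, 0.15 for Cldn1, −0.08 for Cldn8 and −0.44 for Tjp1. For the 6 closest genes it was 0.62 to 0.90.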

How the data were processed

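The authors deposited 1 linear intensity for each probe set and array, made with RMA according to the submitters' processing notes. The sources used here give neither the RMA version nor whether 1 run covered both experiments. Per the labels, 50 ng of total RNA was amplified and biotin-labelled. From the deposited intensity log2 was taken, with no further scaling, offset or filter. Array medians were 100.8 to 113.6. No detection calls or background came with the values, so folds of dim probe sets are approximate. Of 22690 probe sets 64 controls were left out, and the array annotation gave 1 gene to 20380, several to 691 and none to 1555. Of the 15 probe sets described, 11 were below the median probe set mean of 6.77.

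Groups were compared with limma 3.58.1 (lmFit, eBayes) in R 4.3.3, each knockout with the wildtype arrays of its own experiment, two-sided, with Benjamini-Hochberg adjustment over all 22626 probe sets. SE is limma's moderated error. The difference between the knockouts was a contrast over all 14 arrays with 4 group means. The number of arrays limits the precision. The script was tested on simulated data with known changes.

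The 9 genes and all gene lists were chosen with earlier results of these data known. Named were every probe set of the 9 genes, up to 3 genes per list and knockout with the smallest p, marker genes that moved with a result, the deleted genes and the 6 genes most like Cdh1 by Pearson r over all arrays. Promoter windows were RefSeq's for GRCm38.p6. Correlations between the deviations of same-numbered arrays were −0.23 to 0.07 in the Snf2h and 0.064 to 0.13 in the Brg1 experiment. Of these, 0 of 4 and 1 of 3 exceeded 0.1, the level set for pairing. With so few arrays these values cannot exclude pairing, and no label says what a shared number marks. The main tests used no pairing. Alternatives were quantile normalisation, a filter on dim probe sets, 1 probe set per gene, trended robust eBayes, array weights, a replicate block, averaging of near-identical arrays, 1 fit over all arrays and leaving out each array in turn.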

Additional observations from a re-analysis of the deposited data

Results flagged for a closer look

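In the groups of 4 arrays, 30 groups of values were examined for an array that stood far from the others, of which chance flags about 1 in 20, and 3 were found. The Cldn1 probe set 1450014_at measured 3.15 in Snf2h cKO replicate 4, below the other 3 cKO arrays at 3.59 to 3.68. The Cldn1 probe set 1438850_at measured 2.57 in the same array, above the other 3 at 1.55 to 1.59. Both Cldn1 probe sets are dim, and they differed in direction on that array. Tjp1 measured 9.57 in Snf2h wildtype replicate 4, below the other 3 wildtype arrays at 10.13 to 10.23.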

How the results depend on the processing

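For the 9 genes, 45 changes were recomputed under 11 to 21 alternatives each, which gave 699 values. In 632 the direction and the side of the threshold were as reported, in 16 a call was lost, in 6 a call was gained, in 45 a value that had not been called changed sign, and 0 called values reversed. In Brg1 cKO eyes the filter on dim probe sets took out the 3 called probe sets of these genes untested. It left 4 of the 15, of which 0 were called. The count of 3 became 0 to 4 when 1 array was left out (0 without wildtype replicate 2, and 1 without wildtype replicate 1 or 3 or cKO replicate 1 or 3). In Snf2h cKO eyes the count of 0 became 1 with array weights and 0 to 1 when 1 array was left out. For the difference between the knockouts it was 0 throughout. The replicate block takes same-numbered arrays as pairs, although no label says that they are. It gave 0 called probe sets of these genes in Brg1 cKO eyes (Cldn8 adjusted p = 0.0552, Cldn3 and Cldn10 0.103).

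Over all probe sets, the 3 calls in Snf2h cKO eyes became 7 with trended robust eBayes, 513 with array weights, 0 with the replicate block, 0 with the near-identical arrays averaged, 7 with 1 fit over all arrays and 0 to 280 when 1 array was left out (280 without wildtype replicate 1). The 134 calls in Brg1 cKO eyes became 25 with the filter, 42 with the replicate block, 294 with 1 fit over all arrays and 26 to 204 when 1 array was left out. The 149 calls for the difference became 8 with the filter, 76 with the replicate block, 89 with the near-identical arrays averaged and 62 to 297 when 1 array was left out. The filter tests fewer probe sets, and the other causes were not tested. Signal over background limits Cldn8, Ocln and 3 of the 4 Cldn1 probe sets most, since these are the dimmest of the 15.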
